A study of Mus musculus with 6 samples.

Results

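Ribosomal protein processed pseudogenes are intronless genomic copies of ribosomal protein mRNAs, and 124 of them were followed here in sorted mouse bone marrow cells. They are the rows of the deposited table annotated as processed or transcribed processed pseudogenes whose names begin with Rpl (large ribosomal subunit) or Rps (small subunit) and contain -ps, with a mean of at least 10 counts over the 6 libraries. Of 287 rows so named and typed, among 53465 genes in all, 163 fell below that mean and 78 of these had no count. They were thus selected on the mean count over both groups, so their levels are a description, while the difference between the groups was not used. Near the limit, though, a member can pass through the counts of a single group, which favours a difference in that direction. The 124 members comprised 70 Rpl and 54 Rps copies of 48 parent genes, the parent being the gene named before -ps. Members just inside the limit were Rpl35a-ps4, Rps12-ps10 and Rpsa-ps5, with mean counts of 10.5, 11.2 and 12.5. Those just outside it were Rpl21-ps7, Rpl21-ps3 and Rps2-ps11, with 9.17, 8.67 and 8.33.

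Gene expression was measured by poly-A RNA sequencing of cells sorted as long-term haematopoietic stem cells, the rarely dividing cells from which all blood lineages arise. All mice were wild type and had received 5.0 Gy of radiation to the whole body. Afterwards one group was given carnosine, a natural dipeptide stored in muscle, and the other saline, with 3 libraries each, and no unirradiated library was among them. The gate took lineage-negative cells with Sca-1 and c-Kit and without Flk2 or CD34. The labels give neither the age of the mice nor the carnosine dose. Nor do they say that each library is a separate mouse, so the p-values rest on a spread between libraries that could be technical only.

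Ribosomal proteins and ribosomal RNA build the particles that translate mRNA. Their mRNAs are short and very abundant in growing cells, and mammalian genomes hold many copies of them that were reverse transcribed by the machinery of mobile elements and inserted at new places. Such a copy carries no introns and usually no promoter of its own, and many are nearly identical to the mRNA of the parent. A short read from the parent mRNA can therefore match a copy as well as it matches the parent. The sources used here do not say how the authors assigned reads that match several genes. A count listed under a pseudogene is therefore the count the authors' processing placed there, and transcription of the copy and of the parent cannot be told apart from it.

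The sequences show how little separates some copies from their parents. The stretches below run 5′ to 3′ on the transcribed strand, are taken from the GENCODE M21 transcripts of GRCm38, and have in capitals the bases at which the copy and the parent differ. Rpl28-ps1 (chr1:128038569-128038982, plus strand) and Rps6-ps4 (chr2:75191073-75191822, minus strand) are shown because they were among the 5 most abundant members. They matched their parents at every base of 414 and 750 aligned bases, and their first 60 bases hold no capital.
Rpl28-ps1: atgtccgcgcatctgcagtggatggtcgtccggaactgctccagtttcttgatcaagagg
Rpl28: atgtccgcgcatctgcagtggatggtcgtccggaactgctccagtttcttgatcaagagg
Rps6-ps4: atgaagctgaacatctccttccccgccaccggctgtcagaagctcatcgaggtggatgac
Rps6: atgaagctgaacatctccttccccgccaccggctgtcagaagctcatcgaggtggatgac
Rps13-ps1 (chr8:87047689-87048226, plus strand) had the highest count relative to its parent, 36.9 times. It differed from Rps13 at 2 of 522 aligned bases, both in the stretch at chr8:87048103-87048162.
Rps13-ps1: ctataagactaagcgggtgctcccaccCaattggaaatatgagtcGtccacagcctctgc
Rps13: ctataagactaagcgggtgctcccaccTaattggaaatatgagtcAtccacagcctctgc
Rpl35a-ps3 (chr17:29136972-29137304, minus strand) is one of 4 members with the same 333 bases, which differ from Rpl35a at 1 base, in the stretch at chr17:29137119-29137178.
Rpl35a-ps3: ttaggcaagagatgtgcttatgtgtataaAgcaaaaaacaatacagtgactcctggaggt
Rpl35a: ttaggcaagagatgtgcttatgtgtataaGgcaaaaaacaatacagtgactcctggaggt
Rpl22-ps1 (chrX:8038611-8038996, minus strand) stands for the diverged copies. It differed from Rpl22 at 10 of 376 aligned bases and by 19 gapped bases, and 6 of the mismatches lie in the stretch at chrX:8038763-8038822, and none of its 100-base stretches occurs in another annotated gene.
Rpl22-ps1: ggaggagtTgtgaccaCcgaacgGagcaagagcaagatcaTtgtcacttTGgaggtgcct
Rpl22: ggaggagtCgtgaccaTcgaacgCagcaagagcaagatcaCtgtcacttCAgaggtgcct
Rpl36a-ps3 (chr6:136488807-136489127, plus strand) is shown because its name and its sequence point to different genes. It differed from Rpl36a at 40 of 321 bases but from Rpl36al, a second gene for a nearly identical protein, at 1. Capitals mark the positions at which these 3 sequences are not all the same, in the stretch at chr6:136488926-136488985.
Rpl36a-ps3: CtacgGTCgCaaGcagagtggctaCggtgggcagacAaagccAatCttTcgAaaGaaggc
Rpl36a: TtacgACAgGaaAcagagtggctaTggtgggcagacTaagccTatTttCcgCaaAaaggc
Rpl36al: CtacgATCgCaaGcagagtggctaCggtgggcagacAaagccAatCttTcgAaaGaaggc

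Across the members, similarity to the parent was high. Over the 121 members of which at least 80% aligned, the median identity, with gaps counted as differences, was 98.9%, with a range of 87.5% to 100%, and the median number of mismatches was 5. Among them 11 matched the parent at every aligned base. To measure how much of each copy is its own, every run of 100 bases in a member was looked up in the parent and in all other annotated transcripts, on either strand. Of the members, 19 had no 100-base stretch of their own, 20 had at least 90% of their stretches to themselves, and 14 shared none with the parent. The gene holding the most of a member's 100-base stretches was the parent for 63 members, and a member shared at least 1 such stretch with a median of 7 other genes and at most 44.

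The counts ran over a wide range, with a median of the mean count of 504.7 and 49 members of at least 1000. Rps6-ps4 was the most abundant member, at a mean of 20840 counts, and its parent encodes a small-subunit protein phosphorylated downstream of growth signals. The 5 most abundant members held 32.1% of all member counts and the 10 most abundant 48.9%. Members at least 99% identical to their parent numbered 54 and held 75.04% of the member counts, while the 24 under 97% held 2.32%. The median of the mean count was 1660 for the 19 members with no 100-base stretch of their own and 48.2 for the 20 with at least 90% their own. Across the 124 members, the mean count went with the share of 100-base stretches found in the parent (Spearman's rho = 0.64, Pearson's r = 0.64 on log2 counts). These members share libraries and many share sequences, so the correlation is a description. The count of a member showed little relation to the count of its parent (rho = -0.07).

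**Figure D1:**
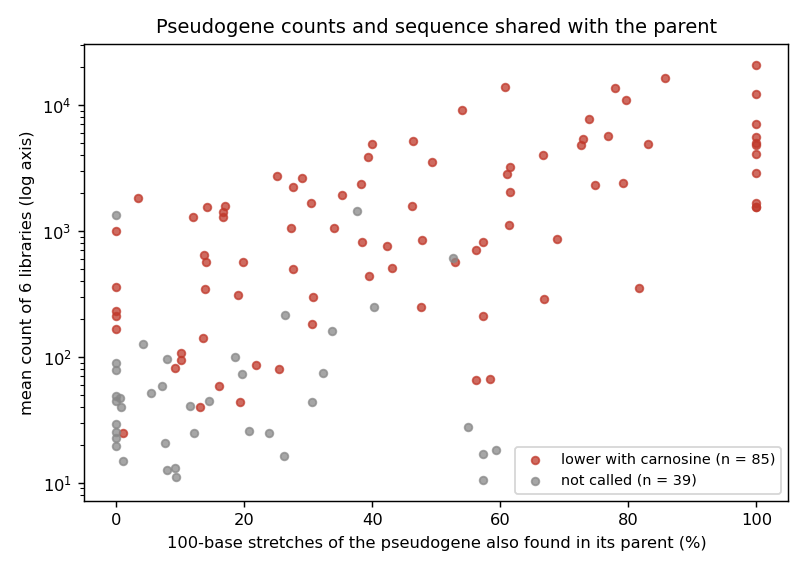
Mean count over 6 libraries (log axis) of each of the 124 pseudogenes against the share of its 100-base stretches that also occur in its parent gene. Red points are pseudogenes with lower counts with carnosine (adjusted p under 0.05), grey points those that did not pass. The 11 members at 100% lie between 1540 and 20840 counts, and low counts gather at the left.

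Some copies were listed at higher levels than the genes they derive from. In counts, 40 members exceeded their parent, 9 of them more than 10-fold. Per kilobase of GENCODE M21 transcript (for a parent, the transcript its copies were aligned to), 48 did, 11 of them more than 10-fold, and the median ratio of copy to parent was 0.305. The deposited FPKM (fragments per kilobase scaled to library size) do not give such ratios. The length they imply was within 1% of the transcript for 117 of the 124 members, but for parents it was 1.0 to 18.5 times the transcript (median 3.57) and, in 26 of 48, longer than the gene's span in the genome. Parent levels in FPKM are therefore low relative to those of the copies, and levels of different genes were compared here in counts per kilobase of transcript.

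Rpl28-ps1 had the highest such ratio, at 29549 counts per kilobase (mean of 6 libraries) and 62.4 times the level of Rpl28. The ratio was 56.3 for Rps23-ps1, 40.4 for Rps13-ps1, 33.3 for Rpl36a-ps2, 13.1 for Rps13-ps2 and 10.4 for Rpl9-ps4. These copies had at most 2 mismatches to the parent. The ratio was also above 10 for Rpl17-ps3 (21.7), Rpl17-ps10 (17.95), Rpl31-ps8 (17.5), Rps10-ps2 (13.7) and Rpl17-ps8 (12.9). Among these, Rpl17-ps10 had 4 mismatches and Rps10-ps2 had 5. Rpl28-ps1, Rps13-ps1, Rpl36a-ps2, Rps13-ps2 and Rpl9-ps4 are also the 5 members highest relative to the parent in FPKM. Rps13-ps1 had 681 ± 8.91 FPKM with carnosine and 791 ± 15.8 FPKM with saline (SD, n = 3 each), and its parent Rps13 encodes a small-subunit protein. Of the 35 copies of the 12 parents lowest per kilobase 22 stood above the parent, and of the 28 copies of the 12 highest 4 did, the parent's level being part of that ratio.

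**Figure D2:**
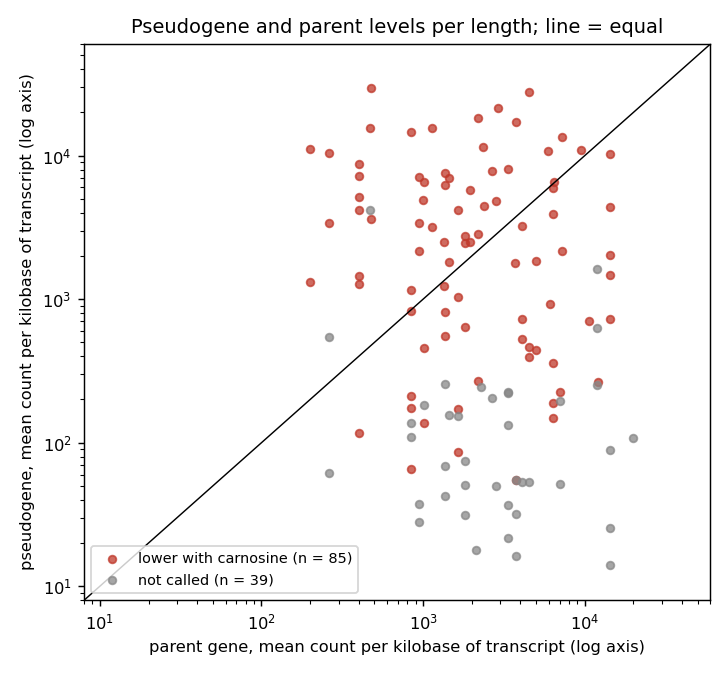
Mean count over 6 libraries per kilobase of transcript of each pseudogene against that of its parent, both on log axes. The line marks equal levels, and 48 of the 124 pseudogenes lie above it. Red points passed the test as lower with carnosine (85), grey points did not pass (39).

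Taken per family of 1 parent and its copies, the copies held over 50% of the family's counts in 27 of 48 families and under 10% in 7. Only members count as copies here, so copies named otherwise or below the count limit are left out of shares and family sizes. They held 98.0% of the Rps13 family's counts, 97.6% of Rpl17's, 96.6% of Rps23's, 96.6% of Rpl36a's and 96.3% of Rpl28's. At the other end were Rps15 with 0.477%, Rps7 with 1.06%, Rpl29 with 1.33% and Rps4x with 1.77% of family counts in copies. The Rpl36a share includes Rpl36a-ps3, whose sequence is closer to Rpl36al, and the Rps7 share rests on Rps7-ps2, whose closest gene was Odc1. The Rpl31 and Rpsa families had the most members, 8 each. Rpsa encodes a small-subunit protein also known as the laminin receptor precursor. In 18 families a parent had a single member and in 30 several.

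The libraries with carnosine were then compared with those with saline, all from irradiated mice. Of the 124 pseudogenes, 85 fell with carnosine (68.5%), 0 rose and 39 did not pass (adjusted p under 0.05 in the quasi-likelihood test of edgeR, with Benjamini-Hochberg adjustment over all 15533 tested genes). All 124 were tested. Over the whole table, 19.8% of tested genes were lower and 19.6% higher. The median log2 fold change (carnosine over saline) of the members was -0.36, with a range of -0.97 to 0.12, against 0.00 over all tested genes, and 121 of 124 lay below 0. In 95 members (76.6%) each carnosine library was below each saline library in CPM (counts scaled to library size by TMM), against 26.1% of all tested genes. The count of 0 higher became 1 with limma on log2(FPKM + 1) (where 25.4% of tested genes were higher) and 1 with offsets for GC content and length (Rps2-ps13, where 18.7% were higher).

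Summed over members, the copies took 1.54%, 1.55% and 1.53% of all counts in the carnosine libraries, and 1.83%, 1.82% and 1.83% in the saline libraries. The groups did not overlap, and the ratio of their means was 0.845. The parents took 1.126 ± 0.0112% with carnosine and 1.297 ± 0.0204% with saline (SD, n = 3 each). Per 100 parent counts the copies had 138, 137 and 136 counts in the carnosine libraries and 143, 137 and 142 in the saline libraries. These ranges overlapped, and the parents' ratio of means was 0.868. In bulk RNA, a smaller share of cells rich in ribosomal protein mRNA and less such RNA per cell cannot be told apart.

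Among the most abundant copies, Rps6-ps4 had 1319, 1343 and 1335 CPM in the carnosine libraries and 1625, 1560 and 1619 CPM in the saline libraries. Every carnosine value lay below every saline value, and the log2 fold change was -0.27 ± 0.0227 (SE; edgeR adjusted p = 0.000126). Its parent Rps6 had 254, 241 and 236 CPM with carnosine and 303, 334 and 308 CPM with saline (log2 fold change -0.37 ± 0.0452, edgeR adjusted p = 0.000713). Both fell, the copy at about 5 times the parent's count. The ratio of copy to parent was 5.19, 5.57 and 5.64 in the carnosine libraries and 5.36, 4.67 and 5.27 in the saline libraries, which overlapped.

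Rpl3-ps1, a copy of the large-subunit gene whose protein reaches towards the site of peptide bond formation, had 1054, 1084 and 1086 CPM with carnosine and 1256, 1211 and 1228 CPM with saline. Its carnosine libraries lay below all saline libraries (log2 fold change -0.20 ± 0.0232). Rpl28-ps1, a copy of a large-subunit gene lying in an intron of Zranb3 on the opposite strand, had 737, 743 and 731 CPM with carnosine and 984, 956 and 1008 CPM with saline. It fell by 0.42 ± 0.0247 on the log2 scale (edgeR adjusted p = 2.25e-05), while Zranb3 did not pass (log2 fold change 0.06). The parent Rpl28, with which it shares every base, had 34.5, 33.5 and 33.3 CPM with carnosine and 36.8, 41.9 and 41.7 CPM with saline. It fell by 0.25 ± 0.0655 on the log2 scale (edgeR adjusted p = 0.021), a call that was lost without carnosine replicate 2 (edgeR adjusted p = 0.0602), without carnosine replicate 3 (0.0622), without saline replicate 2 (0.07) and without saline replicate 3 (0.0622). It was also lost with replicate number as a block (edgeR adjusted p = 0.0523), with DESeq2 (Wald test, adjusted p = 0.0600) and with offsets for GC content and length (log2 fold change -0.14, edgeR adjusted p = 0.139). Copy counts per parent count were 21.4, 22.2 and 22.0 with carnosine and 26.7, 22.8 and 24.2 with saline, which did not overlap.

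**Figure D3:**
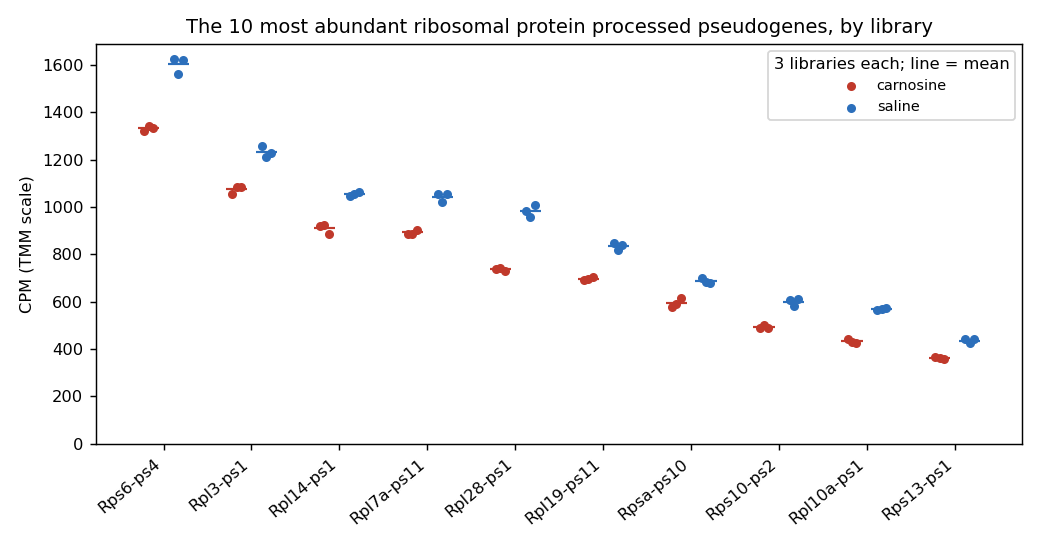
CPM of the 10 most abundant pseudogenes in each library, with carnosine (red) left of saline (blue) for each gene and a short line at each group's mean of 3 libraries. For all 10 the carnosine points lie below the saline points, from 1332 against 1602 CPM for Rps6-ps4 to 360 against 435 CPM for Rps13-ps1.

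The other most abundant copies, Rpl14-ps1, Rpl7a-ps11, Rpl19-ps11, Rpsa-ps10, Rps10-ps2 and Rpl10a-ps1, fell as well. Their log2 fold changes ran from -0.40 for Rpl10a-ps1 to -0.21 for Rpl14-ps1. Rpl10a-ps1 matched its parent at every base and had 440.0, 427 and 426 CPM with carnosine against 565, 567 and 573 CPM with saline. Its parent Rpl10a, a large-subunit gene, had 488, 501 and 490.0 CPM with carnosine against 613, 610.2 and 612 CPM with saline (log2 fold change -0.31 ± 0.0208). Rpl10a-ps1 had the smallest adjusted p of the members (edgeR, 1.69e-05).

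The 12 members with the smallest p-values added Rpl31-ps8, Rpl36a-ps2, Rpl17-ps3, Rpsa-ps2, Rps19-ps6, Rps16-ps2, Rps12-ps9 and Rps24-ps3. Rpl31-ps8 had 337, 329 and 319 CPM with carnosine and 443, 441 and 455 CPM with saline, and fell by 0.44 ± 0.0284 on the log2 scale. Rps19-ps6 is a copy of Rps19, the small-subunit gene most often mutated in Diamond-Blackfan anaemia, a failure of red cell production. It had 216, 212 and 205 CPM with carnosine and 287, 279 and 299 CPM with saline (log2 fold change -0.45 ± 0.0347, edgeR adjusted p = 7.74e-05). Tecpr2, in whose intron it lies on the same strand, rose (log2 fold change 0.38, edgeR adjusted p = 0.00564). Rps24-ps3, a copy of another small-subunit gene mutated in that anaemia, fell by 0.44 ± 0.0318, and Rps24 itself by 0.47 ± 0.0311, on the log2 scale.

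Large- and small-subunit copies had close medians. Of 70 Rpl copies 53 fell (median log2 fold change -0.36), and of 54 Rps copies 32 fell (median -0.35). Calls followed the counts. Of members with a mean count below 100, 10 of 42 fell (median -0.45). Between 100 and 1000 counts 28 of 33 did (median -0.37), and at 1000 or more 47 of 49 did (median -0.32). The members that passed with low counts were those with large differences, so these medians compare all members of each range. Rps2-ps13 and Rpl36a-ps3 were the 2 abundant members that did not pass. The 5 members annotated as transcribed had 3 that fell (median -0.24). Of 10 members on the X chromosome 8 fell (median -0.33).

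The parents moved in the same direction. Of the 48 parents 37 fell and 0 rose (median log2 fold change -0.27), and of 83 tested cytosolic ribosomal protein genes 62 fell and 0 rose (median -0.27). Without carnosine replicate 2, 1 of the cytosolic genes was higher. Member and parent both fell in 63 pairs of the 124, the member alone in 22, the parent alone in 32, and neither in 7. No member was called opposite to its parent. In 92 pairs the member's log2 fold change was the more negative one, with a median difference of -0.10. The size of the fall in a member went only weakly with that in its parent (Pearson's r = 0.11, Spearman's rho = 0.21 over 124 pairs), and pairs share libraries and, where sequences match, possibly reads. Every member's log2 fold change was below 0 in 45 of the 48 families, and every member fell in 25.

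For comparison stand the other processed pseudogenes. Of 1328 tested rows of that kind with a mean count of at least 10, 289 fell (21.8%) and 52 rose (3.92%), with a median log2 fold change of -0.13. Under limma on log2(FPKM + 1) the split was 278 lower and 106 higher. They took 5.50 ± 0.0625% of counts with carnosine and 6.003 ± 0.0209% with saline (SD, n = 3 each). This class leaves out only the rows named Rpl or Rps with -ps. It still holds ribosomal protein copies named otherwise, such as Rps3a3, Rpl6l, Rpl32l and Rps4l, and its other rows were not screened for such copies. The cumulative plot of log2 fold changes sets these classes side by side.

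**Figure D4:**
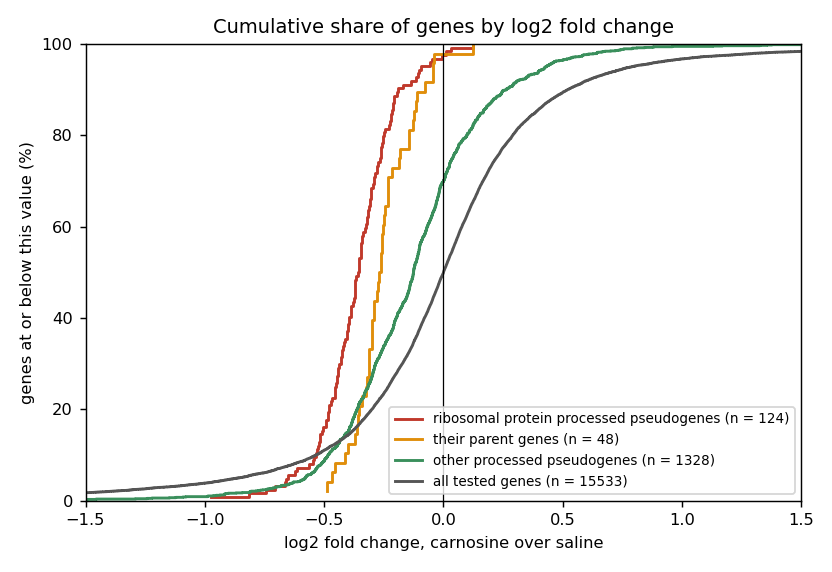
Cumulative share of genes (%) by log2 fold change, carnosine over saline, for the 124 ribosomal protein processed pseudogenes, their 48 parents, 1328 other processed pseudogenes and all 15533 tested genes. The other processed pseudogenes still hold ribosomal protein copies not named with -ps. The axis is limited to -1.5 to 1.5. The medians are -0.36, -0.27, -0.13 and 0.00.

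Some copies were called although the parent was not. The parents that did not pass were 11 of 48, and of their 29 copies 22 fell. Several of these parents had few counts, with means of 153 for Rps13, 187 for Rps23 and 227 for Rpl36a. Their copies together had 7464, 5331 and 6360. Rpl13, Rpl22 and Rpl27 held more counts than their copies. Why a copy passed and its parent did not was not tested. Rps13-ps1 had 364, 360.3 and 355 CPM with carnosine and 441, 424 and 440.0 CPM with saline (log2 fold change -0.27 ± 0.0250). Rps13 had 12.1, 10.7 and 9.19 CPM with carnosine and 10.24, 11.04 and 11.78 CPM with saline, which overlapped (log2 fold change -0.05 ± 0.118). The ratio of copy to parent was 30.1, 33.8 and 38.7 with carnosine and 43.0, 38.4 and 37.4 with saline, which overlapped.

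Rpl36a-ps2, identical to its large-subunit parent over 321 bases, had 309, 320.1 and 309.9 CPM with carnosine and 393, 391 and 394 CPM with saline. It fell by 0.33 ± 0.0234 on the log2 scale, whereas Rpl36a had 16.4, 14.4 and 16.5 CPM with carnosine and 16.6, 17.7 and 14.2 CPM with saline. The parent's groups overlapped (log2 fold change -0.04 ± 0.102). Rps12-ps9 had 177, 174 and 171 CPM with carnosine and 227, 224 and 227 CPM with saline (log2 fold change -0.38 ± 0.0252, edgeR adjusted p = 3.9e-05). Rps12, the small-subunit parent, had 38.0, 45.3 and 39.2 CPM with carnosine and 36.1, 37.0 and 39.2 CPM with saline (log2 fold change 0.12 ± 0.0783, edgeR adjusted p = 0.251). There were 4.67, 3.84 and 4.37 copy counts per parent count with carnosine and 6.29, 6.07 and 5.79 with saline. These did not overlap. The pair stands here because the copy was called and its parent was not, which favours such a difference, so no p is given.

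Rps23-ps1 (chr3:37714740-37715164), identical to the small-subunit gene Rps23 over the alignment, had 267, 289 and 264 CPM with carnosine and 408, 419 and 348 CPM with saline. It fell by 0.52 ± 0.0721 on the log2 scale, while Rps23 stood at 14.2, 13.1 and 10.6 CPM with carnosine and 11.5, 16.4 and 13.2 CPM with saline. An exon of Gm5148 lies across it on the opposite strand. Gm5148 had 431, 427 and 448 CPM with carnosine and 44.9, 139 and 40.6 CPM with saline, and rose (log2 fold change 2.53 ± 0.443, edgeR adjusted p = 0.00376). The libraries were stranded, and the sources used here do not say if counting used the strand, so reads of the pair may be shared. The pair was picked out with its values known.

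Of the 20 members with at least 90% of their 100-base stretches to themselves, 5 fell, and the median log2 fold change was -0.34. Their share of lower calls, 25%, was close to the 19.8% of all tested genes and to the 23.8% of all members under 100 counts. The median of their mean counts was 48.2. Of these 20 members 0 rose and 18 lay below 0. In 11 (55%) each carnosine library was below each saline library, against 26.1% of all tested genes. Of the 19 with no stretch of their own, 16 fell (84.2%), with a median of -0.40. The most abundant of the first kind, named here after their values were seen, were Rpsa-ps12, Rpl39-ps and Rpl22-ps1. Rpsa-ps12 had 118, 114 and 112 CPM with carnosine and 137, 143 and 147 CPM with saline (log2 fold change -0.31 ± 0.0378, edgeR adjusted p = 0.000689). Rpl39-ps differs from the large-subunit gene Rpl39 at 1 of 151 bases, so placed that no 100-base stretch is shared although 51.0% of its 50-base stretches are, and it stood at 6.54 times Rpl39 in counts per kilobase of transcript. It had 61.1, 59.1 and 60.8 CPM with carnosine and 79.0, 78.3 and 81.9 CPM with saline. Rpl39-ps fell by 0.40 ± 0.0406 on the log2 scale.

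Rpl22-ps1, the diverged X-linked copy whose sequence is printed above, had 22.8, 22.8 and 21.4 CPM with carnosine and 30.3, 24.9 and 29.6 CPM with saline (log2 fold change -0.34 ± 0.0872, edgeR adjusted p = 0.0186). The groups did not overlap, but the adjusted p was 0.0593 without carnosine replicate 3, 0.0621 without saline replicate 1 and 0.0562 without saline replicate 3 (edgeR). Its parent Rpl22 encodes a large-subunit protein needed for a class of developing T cells. Rpl22 had 184, 180 and 195 CPM with carnosine and 191, 274 and 202 CPM with saline, which overlapped (log2 fold change -0.26 ± 0.129).

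Of the members above 0, none passed the edgeR test. Rps24-ps2 (log2 fold change 0.01) and Rps19-ps4 (0.03) had mean counts of 19.7 and 16.2, and each became negative with offsets for GC content and length (-0.30 and -0.17).

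Copies with one sequence were listed at very different counts. The 333 bases of Rpl35a-ps2, Rpl35a-ps3, Rpl35a-ps4 and Rpl35a-ps6 are the same, yet their mean counts were 212, 821, 10.5 and 17. Rpl35a-ps3 had 732, 640 and 652 counts with carnosine and 1143, 977 and 783 counts with saline (log2 fold change -0.40 ± 0.0651, edgeR adjusted p = 0.00281). Rpl35a-ps2 had 193, 176 and 154 counts with carnosine and 284, 283 and 180 counts with saline. It fell by 0.39 ± 0.107 on the log2 scale (edgeR adjusted p = 0.0252), a call lost without carnosine replicate 2 or 3 or without saline replicate 1 or 2 (edgeR adjusted p = 0.0696, 0.0766, 0.0746 and 0.0805) and with DESeq2 (Wald test, adjusted p = 0.0542). Rpl35a-ps4 (11, 4 and 5 counts with carnosine, 19, 12 and 12 with saline) and Rpl35a-ps6 (19, 15 and 14 with carnosine, 17, 25 and 12 with saline) did not pass. Rpl35a-ps4, whose log2 fold change of -0.97 was the lowest of the members, passed without carnosine replicate 1 (log2 fold change -1.51, edgeR adjusted p = 0.0289) and with offsets for GC content and length (-1.34, edgeR adjusted p = 0.0289). Its mean count of 10.5 reached the limit of 10 through its saline counts. The selection thus favoured a negative value for it. Rpl35a itself, a large-subunit gene mutated in some Diamond-Blackfan patients, fell by 0.36 ± 0.0527 on the log2 scale.

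A single library stood apart in Rps2-ps10, a copy of Rps2 on chromosome 18, chosen after its values were seen. It had 11, 686 and 659 counts in carnosine replicates 1, 2 and 3, against 848, 853 and 588 counts in the saline libraries. Its log2 fold change was -0.62 ± 0.856 (edgeR adjusted p = 0.608), and -0.04 without carnosine replicate 1. Rps2-ps13, the gene that holds the most of its 100-base stretches, had 99.3, 98.8 and 106 CPM with carnosine and 100.4, 102 and 103 CPM with saline, and its carnosine replicate 1 lay between the other two. Rps2-ps13 did not pass (log2 fold change -0.01 ± 0.0397), and with offsets for GC content and length it was higher (log2 fold change 0.18, edgeR adjusted p = 0.0117). The parent Rps2, a small-subunit gene, fell by 0.18 ± 0.0286 on the log2 scale, a call lost with those offsets (-0.04).

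**Figure D5:**
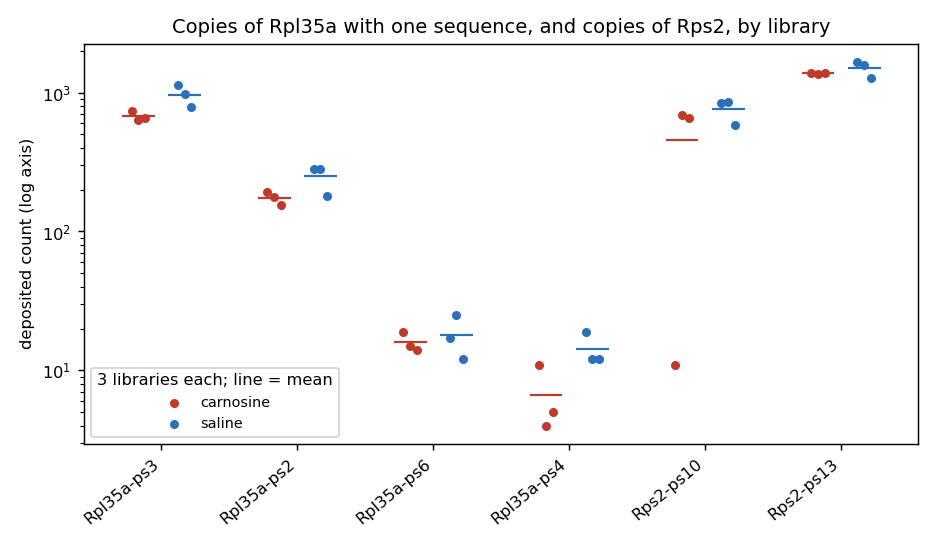
Deposited counts (log axis) per library of 4 Rpl35a copies with one sequence and of 2 Rps2 copies, with carnosine (red) left of saline (blue) and a short line at each group's mean of 3 libraries. The Rpl35a copies range from means of 10.5 to 821 counts, and 1 carnosine library of Rps2-ps10 lies at 11 counts.

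In some members the annotated name and the sequence disagreed. Rpl36a-ps3, 1 base from Rpl36al, had 93.3, 89.7 and 90.9 CPM with carnosine and 100.01, 92.9 and 101.5 CPM with saline (log2 fold change -0.10 ± 0.0441, edgeR adjusted p = 0.104). Rpl36al had 78.6, 71.1 and 71.1 CPM with carnosine and 73.7, 83.5 and 78.8 CPM with saline (log2 fold change -0.10 ± 0.0634, edgeR adjusted p = 0.272). The copy passed without saline replicate 2 (edgeR adjusted p = 0.0357) and with offsets for GC content and length (log2 fold change -0.48). By shared 100-base stretches the closest gene to Rps7-ps2 was Odc1, the gene of the first enzyme of polyamine synthesis, so its comparison with Rps7 does not compare like sequences.

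Overlap with other genes concerned 48 members, 18 on the same and 32 on the opposite strand, and 6 of them met an exon. Of the 30 partners tested, 10 rose and 5 fell, where 19.6% of all tested genes were higher and 19.8% lower. Members overlapping no other gene fell in 48 of 76 cases (median log2 fold change -0.36), and those overlapping one in 37 of 48 (median -0.36).

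Total counts per library were 12730837 to 13651553 with carnosine and 12602067 to 16866534 with saline. The gate could not be checked fully from transcripts, and Flt3 and Cd34, whose proteins the gate excluded, had transcripts in every library. Flt3 (Flk2) stood at 180.4 to 185 CPM with carnosine and 198 to 214 CPM with saline and was lower (edgeR adjusted p = 0.00226). Cd34 stood at 303 to 312 CPM with carnosine and 301 to 339 CPM with saline. Slamf1, a stem cell surface gene, fell (13.7 to 16.4 CPM with carnosine, 27.2 to 28.6 CPM with saline), and Kit (c-Kit) rose (380.4 to 389 CPM with carnosine, 312 to 333 CPM with saline). Cd34, Procr, Cd48 and Ly6a (Sca-1), the rest of 7 gate and stem cell genes, did not pass. Ly6a stood at 23.4 to 39.9 CPM with carnosine and 24.2 to 38.7 CPM with saline. Procr stood at 4.63 to 5.49 CPM and 5.32 to 5.75 CPM, and Cd48 at 100.8 to 106.1 CPM and 94.0 to 97.9 CPM, in the same order.

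Marker levels of other cells also differed. The summed CPM of 7 neutrophil-lineage markers was 6189 to 6436 with carnosine and 2939 to 2971 with saline (3 rose and 3 fell). Most of it was Mpo, at 5403 to 5662 with carnosine and 2688 to 2704 with saline, and Elane, at 741 to 768 and 213 to 229. Mpo, Elane and S100a8 rose, whereas Ltf (log2 fold change -3.08), Ngp (-2.02) and S100a9 (-1.20) fell. The summed CPM of 6 megakaryocyte markers was 142 to 149 with carnosine and 335 to 360 with saline (5 fell). For 8 erythroid markers it was 202 to 211 with carnosine and 165 to 174 with saline (5 rose, 1 fell). For 7 B and plasma cell markers it was 609 to 912 with carnosine and 1006 to 1049 with saline (2 fell), with Ighm lower (log2 fold change -1.30) and Jchain at 0.58 without passing. For 5 T and NK markers it was 123 to 131 with carnosine and 84.3 to 86.0 with saline (3 rose, 1 fell), of which Nkg7 made up 111 to 118 with carnosine and 77.9 to 80.8 with saline. For 5 monocyte and macrophage markers it was 196 to 250.1 with carnosine and 174 to 199 with saline (2 rose, 1 fell). For 6 endothelial and stromal markers it was 90.7 to 96.3 with carnosine and 106 to 118 with saline (3 fell). Of this sum Pecam1 made up 87.5 to 93.3 with carnosine and 93.3 to 99.3 with saline. No list had a marker at 0 in every library, and the part of these differences in the pseudogene values was not tested.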

How the data were processed

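Poly-A RNA was made into stranded paired-end libraries, per the labels' protocols. CASAVA 1.8, HISAT2, StringTie, edgeR and GRCm38 are named without roles in the submitters' processing notes. The sources used here do not give the annotation, the treatment of reads matching several genes or the use of strand. The deposited table holds whole-number counts per gene and library, not normalized, and FPKM values computed by the authors, per the file headers, over a gene length the sources do not define. It matched GENCODE M21 positions for 95.9% of genes and 119 of the 124 members.

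The test was that of edgeR 4.0.16 (R 4.3.3; filterByExpr, TMM, quasi-likelihood F-test, no covariate) over 15533 genes holding 99.8% of counts. CPM are on the TMM scale. SE is the log2 fold change divided by the square root of F. The biological coefficient of variation was 0.0999. The squared difference of 2 libraries was 1.69 to 1.90 times sampling noise within groups and 10.5 to 11.9 times between groups, so none was counted as a duplicate. The procedure was tested on simulated data.

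Members were compared with parents by local alignment (Biopython 1.88) of GENCODE M21 transcripts and by 100-base stretches, and their levels as counts per kilobase of transcript. Members and lists were chosen with earlier results of these data known. Named by rule were the 10 members with the highest CPM, the 12 with the smallest p in each direction, the 5 with the highest FPKM relative to the parent and the 3 on either side of the count limit. Any other gene was named with its values known. Single values of some members are not reported here. Alternatives were DESeq2 1.42.0 (size factors and Wald test), other filters, limma-trend 3.58.1 on log2(FPKM + 1) or log2(FPKM + 0.1) where 3 libraries reached 1 FPKM, the replicate number as a block, each library left out, and, added after seeing the data, offsets for GC content and length (natural splines of 5 degrees of freedom).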

Additional observations from a re-analysis of the deposited data

How the results depend on the processing

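The number of members called was 73 to 78 with 1 library left out and 70 to 96 under the other scalings, filters and tools, each time with at most 1 higher. It was 48 of the 76 members that overlap no other gene, a smaller set by construction. For parents the counts called were 32 to 36 with 1 library left out and 29 to 37 otherwise, for other processed pseudogenes 268 to 286 and 229 to 470 (main 341), and for cytosolic ribosomal protein genes 56 to 61 and 48 to 62. With replicate number as a block, 76 members, 34 parents, 276 other processed pseudogenes and 57 cytosolic genes were called. Same-numbered libraries had deviations correlated at 0.00791, 0.0268 and 0.0210. These values are small, though all 3 carnosine libraries correlated best with their own number, so whether the numbers pair them cannot be told. Offsets for GC content and length moved the members' median log2 fold change to -0.49 and the parents' to -0.20, with -0.01 over all genes. Limma on log2(FPKM + 1) called 3387 genes higher and 2156 lower, with a median over all genes of 0.05, against 3038 and 3077 in the edgeR fit.

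The difference in the members' share of counts (-0.28 percentage points) was -0.26 without the most abundant member and -0.29 to -0.28 with 1 library left out. The parents' (-0.17) was -0.18 to -0.16. The copies per 100 parent counts (difference -3.66) were -5.28 to -2.55 with 1 library left out and -11.0 per 100 parent FPKM, where parents have longer lengths than their transcripts.

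Among 62 single genes and 860 alternative values, 808 kept direction and side of the threshold, 19 lost and 5 gained a call, and 28 turned sign, all but 1 of these without a call. Rpsa-ps10 lost its call with the offsets (-0.045), as did Rps10 (-0.056), and Rpl3 with limma on log2(FPKM + 1) (limma adjusted p = 0.0504). Rps12-ps10 gained one with the offsets (-0.91). The sign of Rpl36a turned to 0.058 with the offsets and to 0.025 and 0.021 with limma (pseudocounts 0.1 and 1), and ranged from -0.12 to 0.030 with 1 library left out. That of Rps13 turned to 0.0012 and 0.0021 with limma and ranged from -0.15 to 0.050. That of Rpl35a-ps6 turned to 0.045 and 0.032 with limma and ranged from -0.17 to 0.23. Rps2-ps13 turned to 0.18 with the offsets (called) and to 0.051 and 0.050 with limma, and ranged from -0.039 to 0.013. Rps24-ps2 turned to -0.30 with the offsets and ranged from -0.088 to 0.12, Rps19-ps4 turned to -0.17 and ranged from -0.014 to 0.10, and Rps23 ranged from -0.23 to 0.038 with 1 library left out. The cause was not tested. Of the 39 members not called, 32 had a mean count under 100, and 10 of the 42 at that depth were called.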
